A study of Mus musculus with 21 samples.

Results

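The genes described here encode or mark the peptide transmitters of pain-sensing neurons: Calca, Calcb, Tac1, Adcyap1 and Smr2. They were chosen by name, and all 5 were present among the 24381 genes shared by the 2 count tables of the series. RNA was sequenced from dorsal root ganglia, which hold the cell bodies of the sensory nerves, of mice carrying a floxed Tmem45b gene. Libraries called cKO came from mice with Tmem45b-flox and Mrgprd-cre, and libraries called flox from mice with Tmem45b-flox alone, so the floxed allele was common to all groups. There were 4 cKO and 4 flox libraries from a CFA model, 4 cKO and 3 flox untreated libraries whose names hold con or ko, and 3 cKO and 3 flox untreated libraries whose names hold LDRG. The untreated sets are called con/ko and LDRG below. The labels spell out neither CFA (usually complete Freund's adjuvant, an emulsion that causes inflammation) nor LDRG, and these sources give no age, dose, time after CFA or number of animals per library. P-values therefore measure the spread between these libraries, which may be partly technical.

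Neuropeptides are cut from longer precursors, packed into dense-core vesicles and released from nociceptor terminals in the skin and spinal cord. CGRP, the calcitonin gene-related peptide, dilates vessels and is made from Calca and Calcb, Tac1 encodes the precursor of substance P and neurokinin A, and Adcyap1 encodes PACAP. Smr2 encodes a secreted protein named for the submaxillary gland and is used in mouse ganglia as a marker of a class of CGRP-containing nociceptors. Mrgprd, whose promoter drives Cre, marks nonpeptidergic nociceptors, a class of cells that is largely separate from the CGRP-containing ones. In whole ganglia, fewer cells of a type and less RNA per cell cannot be told apart.

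Calca and Calcb lie near each other on mouse chromosome 7 and code for nearly the same peptide, so the stretches that encode mature CGRP are shown for comparison. On build mm10, Calca spans chr7:114631478-114636357 on the minus strand and Calcb chr7:114718643-114723365 on the plus strand, with 82285 bases between them. The coding stretches lie within single exons, at chr7:114632470-114632580 for Calca and chr7:114721994-114722104 for Calcb, and were read from GENCODE M21 transcripts. Capitals mark the 5 bases of 111 that differ, which leaves the stretches 95.5% identical.
Calca: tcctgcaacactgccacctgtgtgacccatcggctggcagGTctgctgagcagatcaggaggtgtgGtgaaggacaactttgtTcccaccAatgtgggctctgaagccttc
Calcb: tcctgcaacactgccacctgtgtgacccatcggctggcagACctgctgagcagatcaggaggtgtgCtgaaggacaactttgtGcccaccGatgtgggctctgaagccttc
The longest run of identical bases between any Calca and any Calcb transcript was 61 bases, shorter than the 150-base reads. The sources used here do not say how reads matching both genes were counted, so a small exchange of reads between Calca and Calcb cannot be told apart from their own levels. Tac1 lies at chr6:7554879-7565834, Adcyap1 at chr17:93199017-93206537 and Smr2 at chr5:88086556-88109053, each on the plus strand, and none of the 5 genes overlaps another annotated gene.

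All 5 genes were well covered. Total counts per library were 68922332 to 71790252 in CFA, 53364389 to 65643488 in con/ko and 62124948 to 72502294 in LDRG libraries. Calca had 53162 to 118458 counts per library, and Smr2, the lowest, had 159 to 1348. Levels are given as CPM, counts scaled to a common library size by TMM. Lengths were taken over all annotated exons of a gene, 3399 bases for Tac1 and 1264 for Calcb. Per kilobase of this length, group means of Calca ran from 590.0 to 949 CPM per kb, those of Adcyap1 from 22.3 to 37.7 and those of Smr2 from 2.51 to 12.6. Calca was thus the highest and Smr2 the lowest in every group, with Adcyap1 next above Smr2. Calcb and Tac1 lay between, and their order differed between sets. Calcb averaged 91.8 CPM per kb in cKO CFA and 87.8 in flox CFA libraries, above Tac1 at 78.3 in cKO CFA and 73.1 in flox CFA, whereas in flox LDRG libraries Calcb at 101 and Tac1 at 103 lay within their spread. The order of Calcb, Tac1 and Adcyap1 depends on the exon length used, and in CPM Tac1 lay above Calcb in every group.

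Facts about the libraries bear on every value below. Tmem45b, the targeted gene, separated the genotypes in both untreated sets, with 68.6 to 88.2 CPM in cKO against 148 to 179 in flox con/ko libraries and 59.7 to 72.4 in cKO against 124 to 145 in flox LDRG libraries. It did not separate them after CFA, where libraries labelled cKO had 108, 105, 67.7 and 62.6 CPM and libraries labelled flox had 65.5, 115, 136 and 80.0 CPM. Xist, expressed from the inactive X chromosome, reached at least 283 CPM in each of the 8 CFA libraries but at most 0.33 CPM in each of the 6 from LDRG, so CFA and sex cannot be told apart between those sets. Summed markers of sensory neurons (10 genes) came to 16770 to 20060 CPM over the CFA libraries, 14150 to 17360 over con/ko and 21280 to 23410 over LDRG. Summed red blood cell markers (5 genes) came to 206 to 619 CPM over CFA, 1590 to 4311 over con/ko and 33.8 to 53.9 over LDRG libraries.

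Calca had 1259.8, 1152.6, 1230.3 and 1129.8 CPM in cKO CFA libraries and 894, 1190.9, 1197.7 and 1123 CPM in flox CFA libraries. In the con/ko set it had 947, 1088.7, 1040.5 and 1221.7 CPM in cKO and 864, 1047.5 and 1069.1 CPM in flox libraries. In the LDRG set it had 1400.2, 1455.8 and 1319 CPM in cKO and 1635.7, 1700.5 and 1456.6 CPM in flox libraries. The LDRG libraries of each genotype lay above all CFA and con/ko libraries of that genotype, and the con/ko and CFA libraries overlapped. How many of all genes separate the sets in this way was not counted, so the separation describes these libraries only.

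Calcb varied least, with a highest library only 1.39 times its lowest. It had 113, 115, 126 and 110 CPM in cKO CFA, 95.3, 113, 120 and 115 CPM in flox CFA, 97.8, 107, 105 and 113 CPM in cKO con/ko and 97.7, 114 and 120 CPM in flox con/ko libraries. In LDRG libraries it had 122, 113 and 104 CPM in cKO and 132, 131 and 119 CPM in flox. Its groups overlapped in every pair compared.

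Tac1, the substance P gene, had 286, 259, 263 and 257 CPM in cKO CFA and 213, 251, 287 and 243 CPM in flox CFA libraries. It had 183, 236, 219 and 251 CPM in cKO con/ko and 165, 195 and 247 CPM in flox con/ko libraries. LDRG libraries had 319, 322 and 328 CPM in cKO and 350, 367 and 330 CPM in flox. LDRG stood above both other sets in each genotype, and cKO CFA stood above cKO con/ko without overlap. The share of all genes that separate in these ways was not counted, so this is not shown to be particular to Tac1.

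Adcyap1, the PACAP gene, had 102, 105, 102 and 104 CPM in cKO CFA and 95.2, 98.8, 103 and 95.3 CPM in flox CFA libraries. It had 70.8, 80.0, 86.4 and 100.2 CPM in cKO con/ko, 71.6, 91.8 and 98.96 CPM in flox con/ko, 117, 130 and 119 CPM in cKO LDRG, and 145, 146 and 136 CPM in flox LDRG libraries. LDRG libraries lay above the other sets in each genotype, and cKO CFA lay above cKO con/ko. Here too the share of all genes that separate in these ways was not counted. The CFA libraries of each genotype were close together, with a coefficient of variation of 1.18% in cKO and 3.60% in flox, against 14.6% in cKO and 16.2% in flox con/ko libraries.

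Smr2 spanned the widest range, its highest library being 8.08 times its lowest. It had 8.88, 11.2, 10.4 and 14.1 CPM in cKO CFA and 7.66, 8.85, 10.2 and 9.10 CPM in flox CFA libraries. It had 3.49, 2.86, 3.98 and 6.33 CPM in cKO con/ko and 2.37, 3.56 and 4.23 CPM in flox con/ko libraries. LDRG libraries had 13.3, 12.004 and 11.3 CPM in cKO and 15.2, 16.8 and 19.2 CPM in flox. Unlike the other 4 genes, all con/ko libraries lay below all CFA libraries in both genotypes. Beyond these peptide genes, the share of all genes that separate in this way was not counted.

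**Figure D1:**
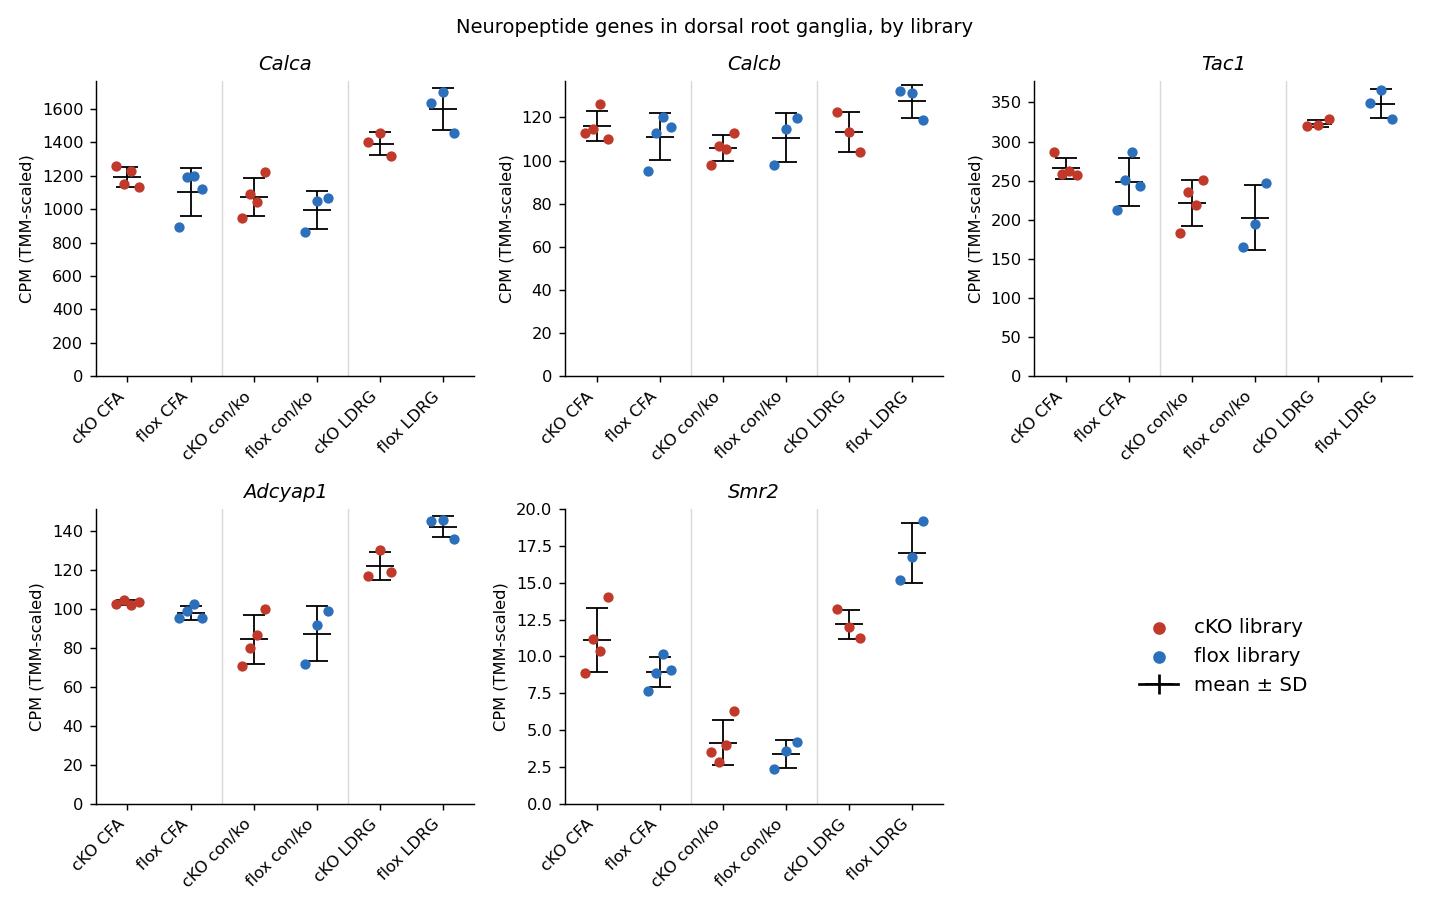
Level of each gene in CPM after TMM scaling (vertical axes, linear from 0) in the 6 groups (horizontal axes), with 1 point per library and black bars for the mean ± SD. Within each genotype LDRG libraries are highest for Calca, Tac1 and Adcyap1, con/ko libraries are lowest for Smr2, and Calcb overlaps throughout, from 95.3 to 132 CPM.

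The first comparison asked whether peptide genes differ when Tmem45b is deleted in Mrgprd-lineage neurons of untreated mice. None of the 5 genes passed the test over the 13 untreated libraries (edgeR quasi-likelihood test, Benjamini-Hochberg adjustment over all genes, called at adjusted p under 0.05), where 0.00599% of 16706 genes were called. Log2 differences, cKO minus flox, were -0.04 for Calca (SE 0.08), -0.12 for Calcb (SE 0.06), 0.02 for Tac1 (SE 0.09), -0.13 for Adcyap1 (SE 0.09) and -0.08 for Smr2 (SE 0.21), with adjusted p of 0.753 or above. The 95% interval was -0.21 to 0.14 for Calca and -0.32 to 0.05 for Adcyap1, and it was wider for Smr2, -0.53 to 0.37.

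The untreated sets gave different pictures of the genotypes, though none was called. In the LDRG set alone all 5 genes had lower values in cKO, and for Calca, Tac1, Adcyap1 and Smr2 the cKO libraries lay below the flox libraries without overlap. The share of all genes that separated in this way was not counted, so the separation describes these libraries only. The log2 difference was -0.22 for Adcyap1 (SE 0.05, unadjusted p = 0.00364) and -0.49 for Smr2 (SE 0.11, unadjusted p = 0.00293), each with adjusted p = 0.99 by edgeR, with 0.0188% of 15998 genes called. For Calca the gap between the nearest cKO and flox LDRG libraries was 1455.8 against 1456.6 CPM. In the con/ko set alone the 5 genes overlapped between genotypes, with differences of 0.12 for Calca, -0.06 for Calcb, 0.14 for Tac1, -0.05 for Adcyap1 and 0.30 for Smr2 (adjusted p of 0.91 or above, 0.243% of 16440 genes called). In that set 5 of 6 skeletal muscle markers were called as lower in cKO, and their part in these values was not tested. The difference between the sets was tested after the data were seen, as a product of genotype and set in the 13 libraries. It was largest for Smr2 at 0.78 (SE 0.36, adjusted p = 0.993) and Calca at 0.31 (SE 0.14, adjusted p = 0.99), no member was called, and 0.00599% of genes were.

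After CFA, libraries labelled cKO and flox overlapped for every one of the 5 genes. The log2 differences were all positive, at 0.12 for Calca (SE 0.09), 0.06 for Calcb (SE 0.08), 0.10 for Tac1 (SE 0.08), 0.08 for Adcyap1 (SE 0.04) and 0.32 for Smr2 (SE 0.14). None passed the edgeR test, the lowest adjusted p being 0.938, and 0% of the 16116 genes tested were called, with 799 at an unadjusted p under 0.05 and 18 called by DESeq2. For Smr2 the 95% interval ran from -0.01 to 0.64 and for Adcyap1 from -0.02 to 0.17. Because Tmem45b did not follow the labels in these libraries, the values compare labels rather than a measured loss of Tmem45b.

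**Figure D2:**
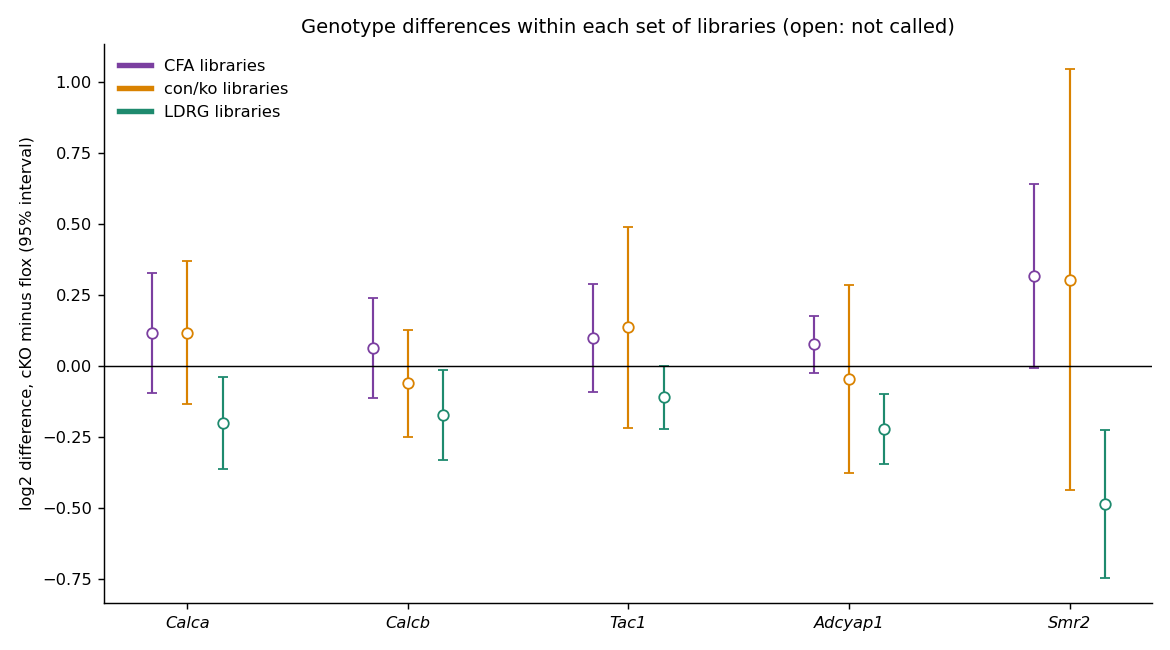
Log2 difference of each gene, cKO minus flox (vertical axis), within the CFA, con/ko and LDRG libraries, with 95% intervals from edgeR. Open circles are differences that were not called, which is all 15, and the LDRG values are the ones that lie below 0 for every gene.

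CFA libraries were next set against untreated libraries of the same genotype, which asks how peptide genes stand in inflamed animals. Against the LDRG set, which shares a count table with the CFA libraries, 4 of the 5 genes fell in flox ganglia, where 6.82% of 16605 genes were called and 3.05% were called as lower. Adcyap1 fell by 0.53 on the log2 scale (SE 0.04, adjusted p = 4.66e-05), which is 30.9% lower. Calca fell by 0.53 (SE 0.09, adjusted p = 0.00443) and Tac1 by 0.48 (SE 0.08, adjusted p = 0.00337), 30.8% and 28.5% lower. Smr2 fell by 0.93 (SE 0.14, adjusted p = 0.00267), 47.3% lower. Calcb did not pass, at -0.19 (SE 0.08, adjusted p = 0.163). For the 4 genes every flox CFA library lay below every flox LDRG library, and the share of all genes that did so was not counted. The median log2 difference of the 5 genes was -0.53, beside -0.00144 over all genes tested.

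In cKO ganglia 1 of the 5 genes fell against the LDRG set, where 2.61% of genes were called and 0.909% were called as lower. This was Adcyap1, by 0.24 (SE 0.04, adjusted p = 0.0152), 15.5% lower, and the call was lost without cKO LDRG library 2 or 3 (adjusted p up to 0.0806). Calca was at -0.22 (SE 0.09, adjusted p = 0.185), Tac1 at -0.28 (SE 0.08, adjusted p = 0.0693), Smr2 at -0.13 (SE 0.14, adjusted p = 0.651) and Calcb at 0.03 (SE 0.08, adjusted p = 0.851). Tac1 was called without flox CFA library 1 or 3. For Calca, Tac1 and Adcyap1 the cKO CFA libraries lay below all cKO LDRG libraries, and the share of all genes that did so was not counted. The difference between the genotypes' responses itself was positive for all 5 genes and called for none by edgeR, with 0% of genes called and 840 at an unadjusted p under 0.05. It was 0.29 for Adcyap1 (SE 0.06, adjusted p = 0.637), 0.79 for Smr2 (SE 0.20, adjusted p = 0.795), 0.31 for Calca (SE 0.13, adjusted p = 0.942), 0.23 for Calcb (SE 0.11) and 0.20 for Tac1 (SE 0.11). With con/ko as the untreated set it was 0.13 for Adcyap1 (SE 0.15), 0.025 for Smr2 (SE 0.34), 0.0073 for Calca (SE 0.14), 0.13 for Calcb (SE 0.11) and -0.028 for Tac1 (SE 0.18). With LDRG as the untreated set, DESeq2 called 25 genes in this comparison, Adcyap1 among them (adjusted p = 0.0315).

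The direction depended on the untreated set. Against the con/ko set, 1 of the 5 genes was called in flox ganglia, and it was higher: Smr2 at 1.39 (SE 0.26, adjusted p = 0.00202), with 29.8% of 16792 genes called and 13.5% called as higher. In cKO ganglia 2 of the 5 were called, both higher, Smr2 at 1.42 (SE 0.24, adjusted p = 0.000624) and Adcyap1 at 0.29 (SE 0.10, adjusted p = 0.034), with 35.9% of genes called and 17.4% called as higher. The remaining values were positive too, at 0.14 in flox and 0.15 in cKO for Calca, 0.29 in flox and 0.26 in cKO for Tac1, 0.00144 in flox and 0.14 in cKO for Calcb, and 0.16 in flox for Adcyap1. With the 4 con/ko libraries coded F alone, in which Xist was high as in the CFA libraries, Tac1 was called in flox as well (0.46, SE 0.13, adjusted p = 0.0249). These contrasts and those with LDRG share the CFA libraries.

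The untreated sets also differed from each other. Con/ko libraries were lower than LDRG libraries for 4 of the 5 genes, where 47.3% of 16706 genes were called and 21.3% as lower. Smr2 fell by 1.89 (SE 0.21, adjusted p = 1.69e-05), 73.1% lower, Tac1 by 0.64 (SE 0.09, adjusted p = 0.000148), Adcyap1 by 0.59 (SE 0.09, adjusted p = 0.000127) and Calca by 0.50 (SE 0.08, adjusted p = 0.000276). Calcb was at -0.13 (SE 0.06, adjusted p = 0.0814) and was called by DESeq2 (adjusted p = 0.0406) and, in edgeR, without cKO LDRG library 3, flox con/ko library 6 or cKO con/ko library 7. Within the con/ko set, libraries coded M and F, compared after the data were seen, differed by 0.03 for Calca (SE 0.10), 0.05 for Calcb (SE 0.07), 0.18 for Tac1 (SE 0.13), 0.16 for Adcyap1 (SE 0.08) and 0.30 for Smr2 (SE 0.18), M minus F. None of these was called (adjusted p of 0.964 or above), and 0.0303% of 16481 genes were. The labels do not explain the code letters, but Xist was near 0 in the M-coded and high in the F-coded libraries.

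**Figure D3:**
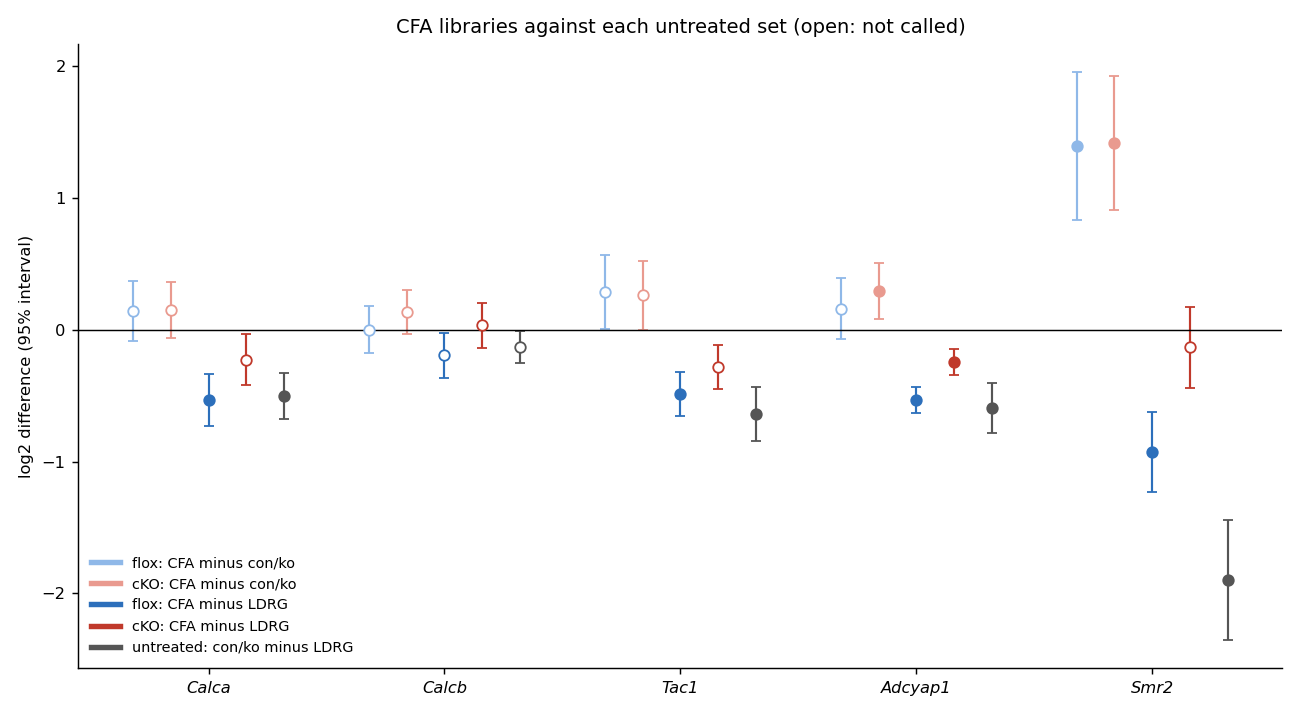
Log2 difference of each gene (vertical axis) with 95% intervals from edgeR, for CFA minus con/ko, CFA minus LDRG and con/ko minus LDRG libraries. Filled circles were called at adjusted p under 0.05. CFA libraries are lower than LDRG and higher than con/ko libraries for Smr2 in flox, at -0.93 and 1.39.

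Sensory neuron markers moved with these contrasts. In flox CFA against LDRG libraries 3 of the 10 fell (Nefm, Stmn2 and Tubb3, with Nefm at -0.51), in cKO CFA against LDRG 2 of 10 fell (Nefm and Stmn2), and in con/ko against LDRG 8 of 10 fell. Over all genes 3.05% were called as lower in flox CFA, 0.909% in cKO CFA and 21.3% in con/ko. As higher, 626 of 16605 genes were called in flox CFA, 282 of 16605 in cKO CFA and 4358 of 16706 in con/ko. All 5 red blood cell markers rose in each of these contrasts, and of 6 immune cell markers 3 rose in flox CFA, 2 in cKO CFA and 6 in con/ko libraries. Of 4 vessel and fibroblast markers 3 rose in flox CFA, 2 in cKO CFA and 4 in con/ko, and in con/ko 5 of 6 markers of myelinating Schwann cells and 3 of 5 of central glia and spinal cord rose as well. The part of these cells in the peptide results was not tested beyond the values that follow. Per 1000 counts of the 10 neuron markers in the same library, Calca had 53.3 to 63.2 counts in flox CFA and 68.5 to 76.1 in flox LDRG libraries, without overlap. This ratio was taken for the 5 peptide genes only, so the share of all genes that separate on this scale is not known. Adcyap1 had 5.04 to 5.67 in flox CFA against 6.37 to 6.52 in flox LDRG, Tac1 had 12.7 to 15.2 in flox CFA against 15.4 to 16.4 in flox LDRG, and Smr2 had 0.456 to 0.536 in flox CFA against 0.667 to 0.901 in flox LDRG. In cKO the same ratio overlapped between CFA and LDRG for Calca, Tac1, Adcyap1 and Smr2. Calca had 56.6 to 63.3 in cKO CFA and 59.3 to 65.7 in cKO LDRG libraries. Calcb, by contrast, had 5.51 to 6.3 in cKO CFA and 5.87 to 7.11 in cKO con/ko libraries, above 4.67 to 5.22 in cKO LDRG. In flox, Calcb had 6.61 to 8.45 in con/ko, above 5.58 to 5.87 in LDRG, while CFA at 5.68 to 6.35 overlapped LDRG. Between con/ko and LDRG libraries Calca overlapped on this scale in each genotype, whereas Smr2 did not, with 0.191 to 0.365 in cKO and 0.161 to 0.299 in flox con/ko libraries, against 0.507 to 0.566 in cKO and 0.667 to 0.901 in flox LDRG. With the mean of the neuron markers as a covariate no member was called in any contrast, and the calls over all genes fell to 10 in flox CFA against LDRG, 12 in cKO and 13 between the untreated sets. The log2 differences moved unequally and their SEs grew. In flox CFA against LDRG, Adcyap1 was at -0.47 (SE 0.08, edgeR adjusted p = 0.0975), Smr2 at -0.49 (SE 0.23), Tac1 at -0.26 (SE 0.13) and Calca at -0.19 (SE 0.13). Between con/ko and LDRG, Tac1 was at -0.68 (SE 0.33), Smr2 at -0.70 (SE 0.62), Adcyap1 at -0.30 (SE 0.29) and Calca at -0.15 (SE 0.26).

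The ratio of Calca to Calcb within a library needs no scaling between libraries and set the LDRG libraries apart. It was 9.74 to 11.2 in cKO CFA and 9.38 to 10.55 in flox CFA, 9.68 to 10.85 in cKO con/ko and 8.84 to 9.15 in flox con/ko, and 11.45 to 12.9 in cKO LDRG and 12.3 to 12.96 in flox LDRG libraries. Every LDRG library thus lay above every CFA and con/ko library. Mean ratios were 9.90 ± 0.493 in flox CFA (SD, n = 4) and 12.5 ± 0.376 in flox LDRG libraries (SD, n = 3), with p = 0.0571 in a two-sided exact permutation test, the smallest that 4 against 3 libraries allow. In cKO they were 10.3 ± 0.617 in CFA (SD, n = 4) and 12.3 ± 0.775 in LDRG libraries (SD, n = 3), also with exact permutation p = 0.0571. Between genotypes the con/ko libraries did not overlap, with means of 10.15 in cKO and 8.98 in flox (exact permutation p = 0.0571). Over the 7 pairs of groups tested the lowest adjusted p was 0.1. None could have passed after adjustment, since the smallest exact permutation p possible was 0.0286 between the CFA genotypes and 0.0571 or 0.1 elsewhere. The tests therefore cannot decide whether the ratios differ. The ratio of Calca to Tac1 was from 4.02 to 5.37 over all libraries.

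**Figure D4:**
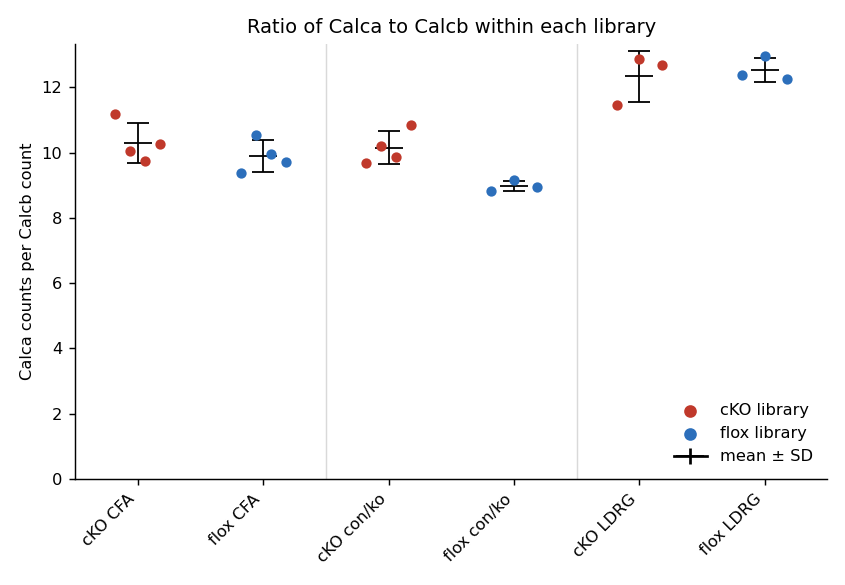
Counts of Calca per count of Calcb in each library (vertical axis, linear from 0) in the 6 groups (horizontal axis), with bars for the mean ± SD. All 6 LDRG libraries lie at 11.45 or above and all other libraries at 11.2 or below.

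Genes for the same pathway were read from 5 lists chosen by function. Among receptors for these peptides, Calcrl, the CGRP receptor, had 9.67 to 16.4 CPM over all libraries, Tacr1, the substance P receptor, had at most 0.766 CPM, and Calcr, the calcitonin receptor, was at 0 in all con/ko and LDRG libraries. Of the 12 listed receptor genes 11 were tested, and none passed in either CFA contrast with LDRG. The 2 with the smallest p in flox were Calcrl at -0.34 (SE 0.13) and Vipr2, a PACAP and VIP receptor, at -1.01 (SE 0.42), with adjusted p of 0.126 and 0.165. In cKO they were Vipr2 at -1.05 (adjusted p = 0.174) and Calcrl at 0.24 (adjusted p = 0.309). Between con/ko and LDRG libraries 3 of 11 receptor genes rose and none fell, beside 4358 of all 16706 genes called as higher. Ramp1, the CGRP receptor partner, averaged 3.29 CPM in cKO and 3.45 in flox con/ko libraries, against 0.548 in cKO and 0.713 in flox LDRG (log2 difference 2.46, SE 0.25, adjusted p = 1.02e-05). Ramp3 rose by 1.01 (SE 0.16), and Vipr1 by 2.05 (SE 0.57) at low levels, its highest group mean being 0.308 CPM.

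Processing and vesicle genes changed in both directions. In flox CFA against LDRG libraries 5 of 16 fell and 2 rose, beside 3.05% of all 16605 genes called as lower and 626 called as higher. The granin genes Scg2 (-0.29, SE 0.06, adjusted p = 0.00838), Chga (-0.28, SE 0.07) and Chgb (-0.24, SE 0.06), whose products fill dense-core vesicles, fell, as did Vgf, which encodes a secreted peptide precursor (-0.69, SE 0.13, adjusted p = 0.00782), and Ece1, a peptide-cleaving enzyme (-0.25, SE 0.07). Mme, which encodes neprilysin, a protease that degrades substance P, rose by 1.07 (SE 0.27, adjusted p = 0.0294), with 48.9 to 65.6 CPM in flox CFA against 16.8 to 42.5 in flox LDRG libraries. Cadps2, a vesicle-priming gene, rose by 0.30 (SE 0.06). Calls were lost in 10 of 14 fits that left out 1 library for Ece1 (adjusted p up to 0.159), 5 for Chga, 5 for Chgb, 3 for Mme (without flox CFA library 1 or flox LDRG library 1 or 2) and 1 for Cadps2 (without flox LDRG library 2), and in none for Scg2 and Vgf. In cKO only Scg2 passed, falling by 0.25 (SE 0.06, adjusted p = 0.031), a call lost in 6 of 14 such fits. Scg2 had 502 to 538 CPM in cKO CFA and 617 to 626 in cKO LDRG libraries, and 494 to 574 in flox CFA against 616 to 699 in flox LDRG. Against con/ko libraries Scg2 was higher instead, by 0.45 in cKO and 0.51 in flox.

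**Figure D5:**
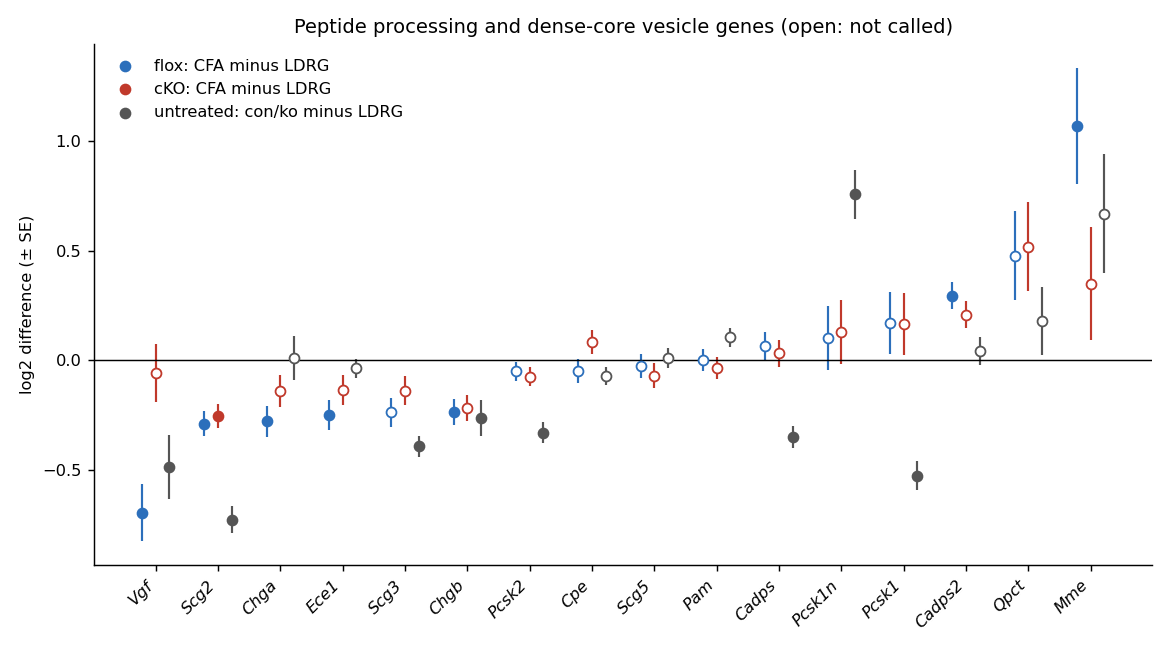
Log2 difference ± SE (vertical axis) of the 16 peptide processing and dense-core vesicle genes (horizontal axis) for CFA minus LDRG in flox and in cKO and for con/ko minus LDRG. Filled circles were called at adjusted p under 0.05. Scg2 is the gene called as lower in all 3 contrasts.

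Between the untreated sets 7 of 16 processing genes fell and 1 rose in con/ko libraries. Over all genes 21.3% were called as lower and 47.3% in either direction, so calls in either direction were about as frequent in the list as among all genes. Scg2 fell by 0.73 (SE 0.06), Pcsk1 and Pcsk2, the convertases that cut peptide precursors, by 0.53 (SE 0.07) and 0.33 (SE 0.05), and Scg3, Cadps, Chgb and Vgf by 0.26 to 0.49. Pcsk1n, an inhibitor of Pcsk1, rose by 0.76 (SE 0.11).

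Among 20 other neuropeptide genes, 15 of which were tested, 2 fell in flox CFA against LDRG libraries and none rose, beside 3.05% of all genes called as lower. Gal, the galanin gene, fell by 0.80 (SE 0.18, adjusted p = 0.0188), with 5.33 to 7.22 CPM in flox CFA and 8.87 to 14.9 in flox LDRG libraries. Against con/ko libraries Gal was lower as well, by 0.75 in flox (SE 0.16, adjusted p = 0.00377) and 0.83 in cKO (SE 0.15, adjusted p = 0.000968), whereas in cKO against LDRG it was at -0.51 (SE 0.18, adjusted p = 0.138) and Cartpt at -0.48 (adjusted p = 0.097). The Gal values were thus negative against both untreated sets, whereas those of Smr2, Tac1, Adcyap1 and Calca were negative against LDRG and positive against con/ko. Nts, the neurotensin gene, fell by 1.45 in flox against LDRG (SE 0.35, adjusted p = 0.0262), with 6.19 to 10.5 CPM in flox CFA against 13.9 to 37.2 in flox LDRG libraries. The calls against LDRG were lost without flox CFA library 1 or flox LDRG library 3 for Gal (adjusted p up to 0.0732) and without these or flox CFA library 2 for Nts (adjusted p up to 0.122). Adm, Nppb and Sst, which encode adrenomedullin, a natriuretic peptide and somatostatin, rose in con/ko against LDRG libraries by 1.27 (SE 0.18), 1.04 (SE 0.13) and 0.91 (SE 0.28), and none of this list fell there. These were 3 of 14 genes tested, no larger a share than the 4358 of all 16706 genes called as higher.

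Of 8 markers of peptidergic nociceptors 1 fell in flox CFA against LDRG libraries, the vasopressin receptor gene Avpr1a, by 1.25 (SE 0.25, adjusted p = 0.0108) at low levels, with 0.970 to 1.35 CPM in flox CFA against 1.97 to 3.78 in flox LDRG. Over all genes 3.05% were called as lower in that contrast. Gfra3, the artemin co-receptor, was next at -0.28 (SE 0.10, adjusted p = 0.0938), the median of the list was -0.09, and no marker passed in cKO, where Trpv1 and Sstr2 were at -0.14 and 0.25. In con/ko against LDRG libraries, where 21.3% of all genes were called as lower, 4 of 8 fell, among them Trpv1, the capsaicin receptor, by 0.46 (SE 0.12), Bmpr1b by 0.30 (SE 0.10) and Kit by 0.17 (SE 0.05), the last not called without flox LDRG library 3.

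None of 9 tested regulators of peptide genes passed in either CFA contrast with LDRG. Isl1, a homeobox factor of sensory neurons, had the smallest p in each, at -0.22 in flox (SE 0.06, adjusted p = 0.0503) and -0.21 in cKO (SE 0.06, adjusted p = 0.0793). Next were Ngfr in flox at -0.25 (adjusted p = 0.115) and Pou4f1 in cKO at 0.28 (adjusted p = 0.105). In con/ko against LDRG libraries Isl1, Pou4f1, Ngfr and Runx1 fell by 0.23 to 0.43, and 2 regulators rose, among them Atf1 by 0.52 (SE 0.10). Over all 16706 genes, 21.3% were called as lower and 4358 as higher there. No gene of the 5 lists passed between genotypes, in untreated or in CFA libraries. The smallest p there belonged to Calcrl in untreated (-0.28, SE 0.09, adjusted p = 0.662) and Sst in CFA libraries (0.52, SE 0.14, adjusted p = 0.938).

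Upstream sequences are shown for the genes that were called as lower in both flox CFA and con/ko against LDRG libraries. CREB-type factors, which bind TGACG, are known regulators of several peptide genes. RefSeq promoters (GRCm38.p6) were given for 4 genes, Calca, Tac1, Adcyap1 and Smr2. TGACG on either strand (CGTCA on the other), in capitals below, was searched in the 250 bases before each start site. It was found 65 bases before the start of Calca, 43 before Tac1, which holds another match farther upstream, and 91 before the first listed start of Adcyap1, and not before Smr2, where the first 100 bases upstream hold the letters shown. Among the 32851 promoters given, 17.8% hold it in this window. The palindrome TGACGTCA, which contains it, occurs in 1.55% and in none of these genes. The RefSeq start of Tac1 lies inside the annotated gene span given above, and so does the Tac1 stretch printed below. A match describes letters only.
Calca upstream, chr7:114636358-114636457, minus strand: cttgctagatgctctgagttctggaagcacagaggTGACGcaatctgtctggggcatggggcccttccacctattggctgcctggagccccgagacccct
Tac1 near site, chr6:7555006-7555035, plus strand: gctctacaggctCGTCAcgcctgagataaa
Adcyap1 upstream, chr17:93198917-93199016, plus strand: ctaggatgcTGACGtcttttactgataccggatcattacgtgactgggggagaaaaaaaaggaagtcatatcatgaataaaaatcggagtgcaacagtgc
Smr2 upstream, chr5:88086456-88086555, plus strand: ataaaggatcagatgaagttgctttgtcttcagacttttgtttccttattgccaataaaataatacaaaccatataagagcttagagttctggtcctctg
Smr2 had the largest log2 difference in flox CFA against LDRG libraries and between the untreated sets. Calca, Tac1 and Adcyap1 differed by like amounts in each of these, from -0.64 to -0.48. In cKO CFA against LDRG libraries Smr2 had the smallest of the 4 instead, at -0.13, beside -0.22 for Calca, -0.28 for Tac1 and -0.24 for Adcyap1. Whether the matches bear on any of these differences was not tested.

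Within groups the peptide genes correlated positively with each other, but for most pairs many other genes ranked closer. After subtracting each group's mean of log2(CPM + 0.5), Pearson's r over the 21 libraries was 0.869 between Calca and Calcb, 0.833 between Calca and Tac1 and 0.792 between Tac1 and Adcyap1. It was 0.724 for Calca with Adcyap1, 0.724 for Calcb with Tac1 and 0.613 for Calcb with Adcyap1. For Smr2 it ran from 0.44 with Calca to 0.706 with Adcyap1. Calcb and Calca were each among the 3 genes most like the other of 11772 searched. By likeness to Calca, Tac1 stood at rank 12, Adcyap1 at 80 and Smr2 at 1200. Most like Calca were Tagln2 and Actr3-ps (r of 0.881 and 0.871), and Hoxd9 and Tmem233 were most like Calcb after Calca (0.856 each). Cartpt, another neuropeptide gene, was most like Tac1 (0.835), followed by Calca and Arrb2 (0.821). Stx11, Tapbpl and Car8 were most like Adcyap1 (0.915 to 0.919), and Galnt3 and Msn were among the 3 most like Smr2 (0.887 and 0.885). These correlations describe libraries that share preparation and tissue composition.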

How the data were processed

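Poly-A RNA of dorsal root ganglia was sequenced in pairs of 150-base reads, per the labels. The authors deposited unnormalized counts for each gene, in 2 tables (24524 genes in 14 libraries and 24512 in 7). Fastp 0.23.2, BWA 2.2.1, SAMtools 1.14, DESeq2 1.40.2 and build mm10 are named in the submitters' processing notes (no source used here names the counter). Genotype came from titles.

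Tests used edgeR 4.0.16 under R 4.3.3: TMM scaling, genes kept by filterByExpr (minimum count 10, total 15), quasi-likelihood test and Benjamini-Hochberg adjustment over all genes. Untreated genotypes were fitted with set as a term, CFA genotypes alone, and the CFA contrasts in 14 libraries (15 with con/ko). Alternatives were RLE factors, DESeq2 1.42.0, other filters, a neuron score, code letters, a replicate block, other untreated sets and leaving out each library. The members and lists were chosen with earlier results of these data known. Genes were named if called, or otherwise the 2 with the smallest p per list, with the 3 most like genes per member among those of at least 5 CPM. Some genes that meet this rule are not reported here. Libraries named as exceptions and Xist were chosen after their values were seen. No pair of the 27 within-group library pairs agreed within sampling noise (chi-square per degree of freedom 26.9 to 150).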

Additional observations from a re-analysis of the deposited data

How the results depend on the processing

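Of the log2 differences of the 5 peptide genes recomputed under alternatives, 693 kept their direction and side of the threshold and 42 turned direction. A further 11 kept direction but lost a call, and 8 kept direction and gained one. Of the log2 differences of the other named genes 557 kept both, 82 lost a call with direction kept and 15 turned. Calls lost or gained by values that turned are not in these counts. The cause was not tested in any case. With con/ko in place of LDRG, flox CFA gave 1 member called and 5000 genes, with 0.14 for Calca, 0.0014 for Calcb, 0.29 for Tac1, 0.16 for Adcyap1, 1.395 for Smr2, 0.13 for Chgb, 0.51 for Scg2, 0.14 for Vgf, -0.20 for Mme and 0.14 for Avpr1a. With the F-coded con/ko libraries it gave 2 members and 3839 genes, with 0.20 for Calca, 0.065 for Calcb, 0.46 for Tac1, 0.26 for Adcyap1, 1.59 for Smr2, 0.017 for Chgb, 0.54 for Scg2, 0.0047 for Vgf, -0.25 for Mme and 0.23 for Avpr1a. In cKO the con/ko set gave 2 members and 6023 genes, with 0.15 for Calca, 0.26 for Tac1, 0.29 for Adcyap1, 1.42 for Smr2 and 0.45 for Scg2. The F-coded libraries gave 2 members and 5314 genes, with 0.22 for Calca, 0.34 for Tac1, 0.45 for Adcyap1, 1.80 for Smr2 and 0.50 for Scg2. The difference between the genotypes' responses was then -0.028 for Tac1 with con/ko (1 gene called) and -0.12 with the F-coded libraries (5 genes called). With con/ko it was 0.025 for Smr2, 0.0073 for Calca and 0.13 for Adcyap1, none called.

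With the neuron score as a covariate 0 members were called in flox CFA (10 genes), cKO CFA (12 genes) or con/ko (13 genes) against LDRG. Adcyap1 was still at -0.47 in flox CFA and Tac1 at -0.68 in con/ko, with larger SEs. Values that turned were Calcb at 0.13 in flox CFA, Smr2 at 0.15 in cKO CFA, and, in con/ko, Calcb at 0.037, Chgb at 0.073, Vgf at 0.57 and Ngfr at 0.29. Between genotypes after CFA (2 genes called) they were Calca at -0.021, Calcb at -0.060 and Tac1 at -0.013. Between untreated genotypes Tac1 was at -0.11 in LDRG alone (3 genes called), Calca at 0.12 and Smr2 at 0.30 in con/ko alone (40 genes called), and Calca at 0.0034 and Smr2 at 0.033 with the code letter as a term.

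DESeq2 called 40 genes between untreated genotypes, 18 after CFA, 8360 in con/ko against LDRG (5 members), 1928 in flox CFA and 1292 in cKO CFA against LDRG (2 members), 25 for the difference between responses (1 member), 43 for genotype by set and 53 for M against F. The replicate numbers did not pair the libraries, since correlations of same-numbered deviations ran from -0.101 to 0.273. The replicate block gave 738 genes in flox CFA and 217 in cKO CFA with the members' calls unchanged, and Tac1 at -0.015 between untreated genotypes. No block could be fitted between the untreated sets, which share no number.

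Leaving out each library gave 4 members called each time in flox CFA (462 to 1380 genes), 0 to 2 in cKO CFA (61 to 725 genes) and 4 to 5 in con/ko against LDRG, where Calcb was the gene added. Genes called ran from 1 to 44 between untreated genotypes, 0 to 2 after CFA, 0 to 1 for the difference between responses, 1 to 5 for genotype by set and 2 to 9 for M against F. Values that crossed 0 ran from -0.092 to 0.0071 for Calca and -0.052 to 0.082 for Tac1 between untreated genotypes, -0.0038 to 0.10 for Calcb after CFA, -0.023 to 0.088 for Calcb in cKO CFA, and -0.012 to 0.078 for Calca in M against F. Smr2, with as few as 159 counts, was the least precise.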

Other observations

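Creb1, a listed regulator, had 2 separate levels within groups: 12 libraries had 5.61 to 11.04 CPM and 9 had 44.2 to 62.0 CPM. The upper level held 2 of 4 cKO CFA, 0 of 4 flox CFA, 2 of 4 cKO con/ko, 1 of 3 flox con/ko, 2 of 3 cKO LDRG and 2 of 3 flox LDRG libraries. Creb1 was noticed after its values were seen, and its log2 difference between cKO and flox CFA libraries was 1.87 (SE 0.62, edgeR adjusted p = 0.938). No source used here names the counting tool, and whether the levels arise in counting was not tested.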
